A study of Mus musculus with 12 samples.

Results

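Mitochondrial ribosomal protein mRNAs were read in 6 mouse RNA-seq libraries as the 78 nuclear protein-coding genes whose symbols begin with Mrpl or Mrps followed by a digit, of 55180 genes with values and 21898 nuclear protein-coding genes. There were 49 Mrpl genes, named for the large subunit, and 29 Mrps genes, named for the small subunit. The study compared cortex of male mice of the C57BL/6J background, 3 Larp1 WT and 3 Larp1 KO. Both groups carried Nestin-Cre, a recombinase driven in neural progenitors, so the WT animals were Cre-positive controls, and the KO animals in addition carried the loxP-flanked Larp1 allele on both copies (Nestin-Cre;Larp1-flox/flox). No source used here gives the age of the animals. Each library came from 1 numbered mouse (678, 687, 688, 698, 700 or 703), and no label ties a number to a genotype, so no comparison of genotypes was made and values are given per library, or as the range and median of all 6.

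Mitochondria translate a small set of respiratory chain proteins on their own ribosome, whose rRNAs come from mitochondrial DNA. All of its proteins are encoded in the nucleus, made in the cytosol and imported. Some have counterparts in bacterial ribosomes, and others are found in mitochondria alone. The question here was how evenly these mRNAs were held across animals, and how their starts and promoters compare with the terminal oligopyrimidine (TOP) motif, a C at the first base followed by a run of pyrimidines, which is bound by the protein Larp1.

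Library depth ran from 34689262 to 44463362 expected counts. Nuclear protein-coding genes held 61.6% to 66.3% of counts but 22.7% to 28.9% of TPM, the length-scaled share of RNA, since short non-coding RNAs of the annotation class misc_RNA held 36.4% to 47.8% of TPM. Levels below are therefore coding TPM, in which nuclear protein-coding genes sum to 1000000 in each library. The labelled tissue was checked with markers fixed for the purpose. The 6 neuron markers summed to 6871 to 7547 coding TPM and the 4 markers of cortical excitatory neurons to 301.6 to 344.8, while the 4 markers of liver, heart, pancreas and kidney summed to 0 to 0.509.

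All 78 mitochondrial ribosomal protein genes reached 10 counts in every library, as did 13625 nuclear protein-coding genes. The lowest count of any member was 91, for Mrps28, and the median count of a member was 440. The median level of the members was 53.1 coding TPM, and 68 of the 78 lay above 26.8, the median of all detected nuclear protein-coding genes. Together they made up 0.410% to 0.469% of coding TPM. In bulk tissue, fewer cells of a type and less RNA per cell cannot be told apart.

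The small-subunit protein Mrps21 (bS21m in the unified nomenclature, chr3:95862634-95871519 of GRCm38, minus strand) had the highest level of all members. It measured 226.1, 222.6, 179.5, 197.2, 204.0 and 188.5 coding TPM in mice 678, 687, 688, 698, 700 and 703, above 92.5% of detected nuclear protein-coding genes. No other member reached its level in any library. It was followed among Mrps genes by Mrps33, a protein specific to mitochondria, with a median of 113.7 (range 108.6 to 128.0), and by Mrps12, the decoding-centre protein, with a median of 99.9 (range 86.5 to 101.9). The ranges of Mrps33 and Mrps12 did not overlap. The fourth, Mrps18a, had a median of 88.1 (range 82.8 to 96.6), which overlapped that of Mrps12.

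Among Mrpl genes the highest was Mrpl30 (uL30m, chr1:37890477-37898535, plus strand), with 133.3, 154.7, 105.9, 89.1, 134.5 and 117.2 coding TPM in the same order of mice. The next in order was Mrpl42, a subunit specific to mitochondria, with a median of 112.1 and a range of 97.0 to 139.5. Mrpl58, a peptidyl-tRNA hydrolase built into the large subunit and also known as ICT1, had a median of 99.5 (range 89.5 to 107.4). Mrpl52 had a median of 97.0 (range 68.0 to 107.7). The ranges of these 4 neighbours overlapped, so their order was not fixed by these libraries.

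At the low end stood Mrpl1 (uL1m, chr5:96209493-96266727, plus strand), a protein of the stalk beside the exit site for tRNA. It measured 9.86, 10.3, 9.54, 9.17, 8.38 and 11.3 coding TPM, below every other member in each library. The highest median of a member was 20.7 times the lowest. Mrps30 was next, with a median of 13.4 (range 12.3 to 14.3), then Mrps28 with 18.0 (16.2 to 20.5), Mrpl47 with 18.3 (14.9 to 21.1) and Mrpl39 with 18.9 (15.3 to 21.2). Apart from Mrpl1 and Mrps30, the ranges of these lowest members overlapped. Mrps31 closed the low end of the Mrps genes at 21.2 (18.5 to 24.4). The plot of levels by gene and library shows the whole set.

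**Figure D1:**
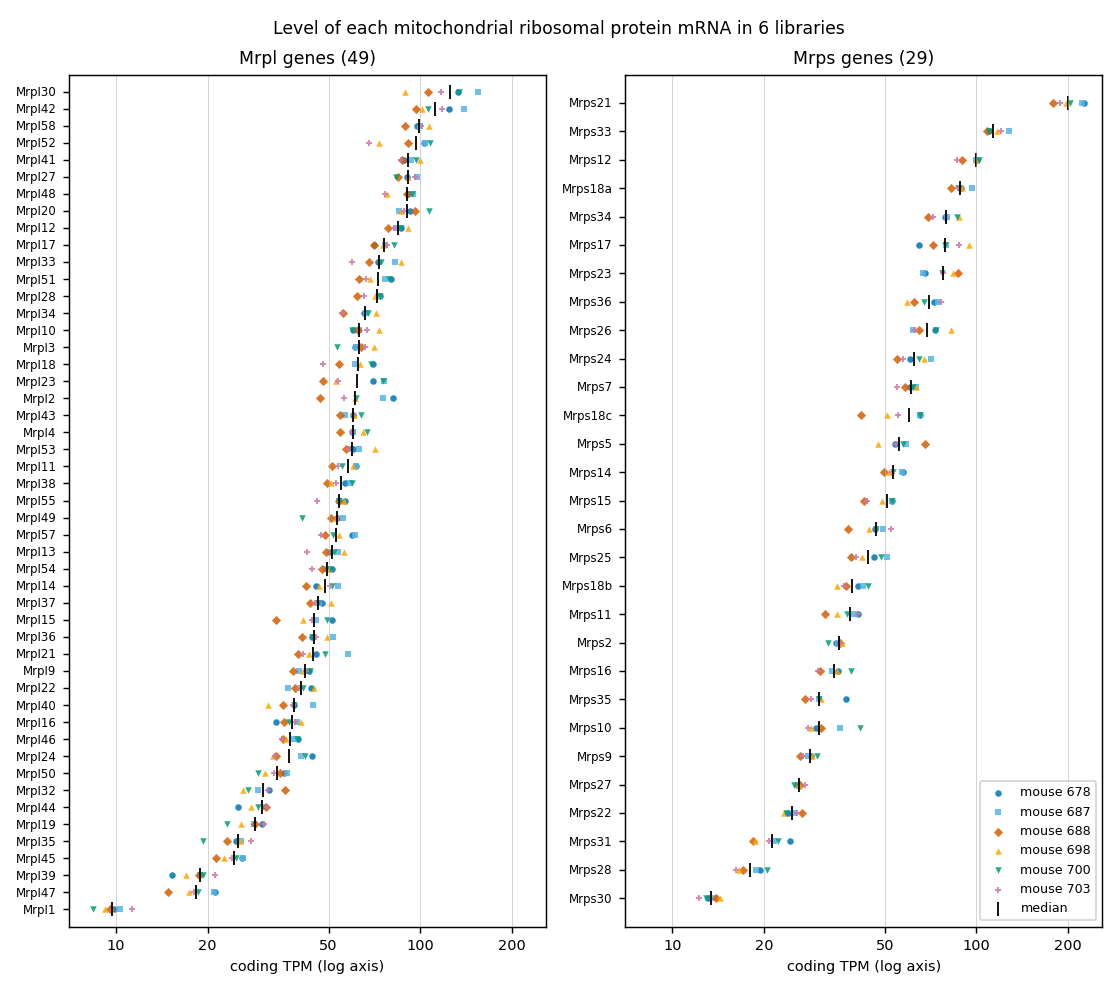
Level of each of the 49 Mrpl genes (left) and 29 Mrps genes (right) in coding TPM, on a log axis, with 1 point for each of the 6 libraries and a bar at the median. Mrps21 lies highest and Mrpl1 lowest, and most genes span less than a 1.5-fold range.

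Symbol and place in the ribosome differ for some members. Mrps30 (mL65) and Mrps18a (mL66) sit in the large subunit, and Mrps36 is a component of the 2-oxoglutarate dehydrogenase complex and no ribosomal protein. Mrps36 measured 59.2 to 76.5 coding TPM with a median of 70.0, inside the range of the ribosomal members. The 3 paralogs of the S18 family were at unlike levels. Mrps18a had the highest, Mrps18c (bS18m), which takes the place of bacterial S18, had a median of 60.2 (range 41.8 to 65.5), and Mrps18b (mS40) a median of 39.1 (range 34.7 to 43.9). The ranges of Mrps18b and Mrps18c overlapped slightly, and both lay below that of Mrps18a.

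At the base of the stalk that recruits translation factors, Mrpl10 had a median of 62.9 coding TPM (range 59.9 to 73.3) and Mrpl11 a median of 57.9 (range 51.3 to 61.7), and these ranges overlapped. Mrpl12, the L7/L12-like protein of the stalk itself, which is present in several copies on each ribosome, stood higher at 78.3 to 91.3 with a median of 84.9. Its range lay above those of both stalk-base genes. Mrpl22, which lines the exit tunnel and for which the study lists qPCR primers, measured 43.8, 36.9, 38.9, 44.6, 41.1 and 40.0 coding TPM.

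Large and small subunit genes had similar typical levels. The median over Mrpl genes was 54.1 coding TPM and that over Mrps genes 50.9. Within libraries, the Mrpl median was 1.08, 1.10, 1.17, 1.14, 1.01 and 0.963 times the Mrps median in mice 678, 687, 688, 698, 700 and 703, so it was the higher in 5 of 6 libraries. With genes assigned by their place in the ribosome structure (51 large, 26 small, Mrps36 left out) it was higher in all 6, at 1.05 to 1.22 times, and with the mean over genes in place of the median the ratio was 0.981 to 1.01. Mrpl genes held 62.4% to 63.2% of the summed level. Members with a bacterial counterpart (46) and those specific to mitochondria (31) had medians of 53.6 and 53.0 coding TPM.

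The subunit ratio changed more when transcripts were sorted by annotated type. RSEM divides a gene's reads among its listed transcripts, and the 78 genes list 343 of them. In the median member, 92.5% of TPM fell to transcripts annotated as protein-coding, and 44 members exceeded 90%. In 15 members the share was under 50%, which is 8 of 49 Mrpl and 7 of 29 Mrps genes, or 16.3% and 24.1%, beside 840 of 13625 detected nuclear protein-coding genes, or 6.17%. With protein-coding transcripts alone, the Mrpl median was 1.27 to 1.79 times the Mrps median.

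These 15 genes were of several kinds. In Mrps26, a small-subunit protein specific to mitochondria, 8.87% of TPM (range 8.3% to 10.2%) fell to the coding transcript and the rest to a transcript with a retained intron. Retained-intron transcripts also led in Mrps25, Mrps24, Mrpl57 and Mrps5. In Mrpl32, whose protein needs processing by a mitochondrial protease before it joins the ribosome, 14.1% was coding (range 11.4% to 16.0%), and a transcript annotated for nonsense-mediated decay led, as in Mrps14, Mrpl3 and Mrpl13. Non-coding processed transcripts led in Mrps16, Mrpl15, Mrpl51, Mrpl47, Mrps35 and Mrpl19. The division was similar in all 6 libraries for the genes at the extreme, and wider for Mrps35 (26.1% to 46.1%). In counts not divided by length the coding share was larger: over the 6 libraries together it was 31.1% for Mrps26, 44.9% for Mrpl32, 83.0% for Mrpl47 and 92.9% for Mrpl19, where the leading transcript has 419 bases. The part played by the division by length, or by the annotation, was not tested. Gene levels above sum all listed transcripts.

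**Figure D2:**
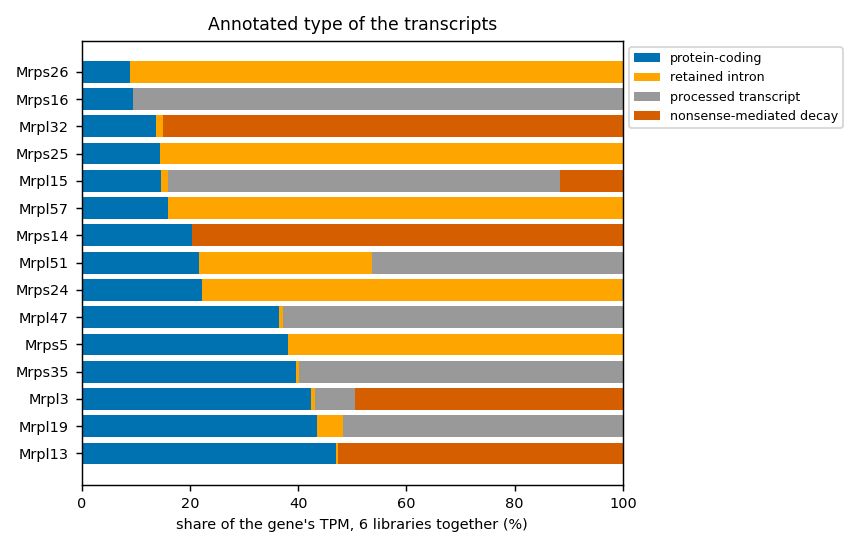
Share of each gene's TPM, summed over the 6 libraries, by annotated transcript type, for the 15 members with under 50% in protein-coding transcripts. Coding shares run from 8.94% for Mrps26 to 47.0% for Mrpl13.

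The summed level of the 78 mRNAs varied little between animals. It was 4561, 4688, 4097, 4406, 4543 and 4249 coding TPM in mice 678, 687, 688, 698, 700 and 703, a ratio of highest to lowest of 1.14. Mouse 687 was highest and mouse 688 lowest, for Mrpl and Mrps sums alike, with ratios of 1.15 and 1.13. For comparison, the 77 mRNAs of the cytosolic ribosome summed to between 24828 and 55669 coding TPM, a ratio of 2.24, and the 37 of Complex I of the respiratory chain to a ratio of 1.27.

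By gene, the highest library exceeded the lowest by a ratio with a median of 1.27 among members and 1.33 among all detected nuclear protein-coding genes. The upper quartile was 1.36 for members and 1.57 for all. A ratio of at least 1.5 was reached by 6 of 78 members, or 7.69%, against 29.6% of all detected nuclear protein-coding genes, 76 of 77 cytosolic ribosomal protein genes and 6 of 37 Complex I genes. The share among members was thus below the background, and 72 members stayed within 1.5-fold. The background was not matched for level, and 68 of the 78 members lie above its median level. With 1 added to coding TPM before the ratio, 6 members passed, beside 22.2% of all detected nuclear protein-coding genes. With TMM scaling 5 did, beside 23.7%. Counting error alone gives a 95% Poisson interval whose ends are 1.12 to 1.52 times apart at the lowest count of each member. In 28 of 78 members the 6 libraries spanned less than that interval, a count that was not made over all genes.

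**Figure D3:**
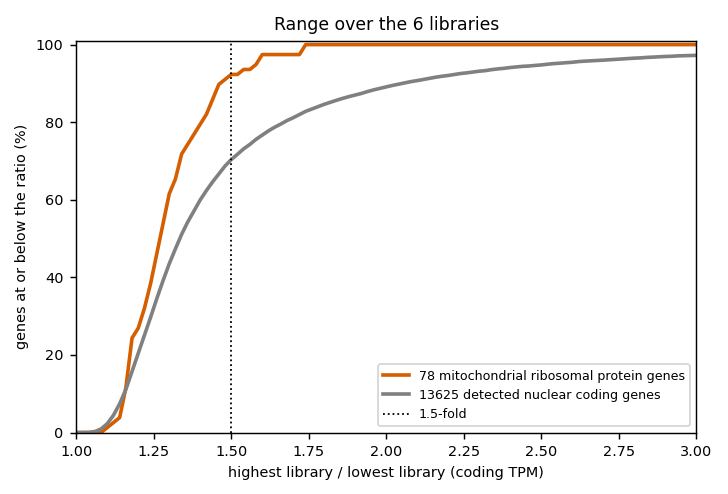
Cumulative share of genes (%) by the ratio of highest to lowest library in coding TPM, for the 78 members (orange) and 13625 detected nuclear protein-coding genes (grey), with a dotted line at 1.5-fold. Beyond the line lie 7.69% of the members and 29.6% of all genes.

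In all 6 members past 1.5-fold, the libraries of mice 678, 687 and 700 lay above those of mice 688, 698 and 703, while the lowest and highest library differed from gene to gene. This order was seen in 6.11% of all detected nuclear protein-coding genes. It was not counted among those past 1.5-fold, so the 6 members are described without that comparison. Mrpl30 had a ratio of 1.74, with mouse 698 lowest and mouse 687 highest. Mrpl2 (uL2m), a protein near the peptidyl transferase centre, measured 81.3, 75.3, 46.9, 60.9, 61.4 and 56.3 coding TPM in mice 678, 687, 688, 698, 700 and 703, a ratio of 1.73. Mouse 688 was lowest and mice 678 and 687 were highest. Mrpl23 (uL23m), at the mouth of the exit tunnel, measured 70.1, 75.9, 47.9, 53.0, 75.6 and 53.5, a ratio of 1.58, with a gap between the 3 lower and 3 higher libraries. Mrpl23 shares 540 bases at full identity with its processed pseudogene Mrpl23-ps1, which was assigned 4.98% of the count of Mrpl23, so the division between the pair is uncertain.

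Mrpl52 (mL52) measured 102.8, 104.1, 91.2, 73.4, 107.7 and 68.0 coding TPM, a ratio of 1.58, with mice 698 and 703 low. With protein-coding transcripts alone mouse 688 was low too, at 60.3, beside 65.8 in mouse 698 and 61.8 in mouse 703. Mrps18c was the only Mrps gene past 1.5-fold, at 65.5, 65.3, 41.8, 50.7, 65.1 and 55.3, a ratio of 1.57. Mrpl15 (uL15m) had a ratio of 1.53, with mouse 688 lowest at 33.5 and mouse 678 highest at 51.3. Mouse 688 was the lowest library in 4 of these 6 genes, and in 10.8% of all detected nuclear protein-coding genes. Without it 2 of the 78 members reached 1.5-fold, beside 26.7% of all detected nuclear protein-coding genes.

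The next Mrps genes by ratio were Mrps10 (1.48, with mouse 700 highest at 41.5 coding TPM), Mrps17 (1.45) and Mrps5 (1.42). The steadiest members were Mrps27, an RNA-binding protein of the pentatricopeptide repeat type in the small subunit, and Mrps2 (uS2m). Mrps27 measured 25.7, 25.9, 26.4, 26.2, 25.2 and 27.3 coding TPM, a ratio of 1.08, and Mrps2 had a range of 32.6 to 36.2, a ratio of 1.11. Of the Mrpl genes, Mrpl46 and Mrpl9 moved least, with ratios of 1.13 and 1.14. Members with a bacterial counterpart and those specific to mitochondria had median ratios of 1.288 and 1.248.

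Mouse 688 stood low for many members at once, a pattern that was chosen for description after the values were seen. It was the lowest library for 34 of 78 members, or 43.6%, against 10.8% of all detected nuclear protein-coding genes. It was the highest for 4 members, or 5.13%, against 20.5% of all genes. The median member lay 0.11 below its own median in mouse 688 on the log2 scale, with Mrpl and Mrps genes alike, while the median of all genes lay 0.03 above. The next most frequent lowest library was mouse 703, for 17 members, or 21.8%, near the 18.8% of all genes. The markers of blood, of which 1 of 3 was detected, summed to 5.86 coding TPM in mouse 688 and to 13.4 to 72.7 elsewhere. Neuron markers in mouse 688 (7326) were the second highest. Other markers also varied between libraries. Those of oligodendrocytes summed to 1330 to 2292, with 1647 in mouse 688, and those of endothelium to 36.8 to 59.1, with 39.3 in mouse 688. The part of these markers in the result was not tested.

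Mouse 688 was not low alone. The member sums were lower in mice 688, 698 and 703 (4097, 4406 and 4249 coding TPM) than in mice 678, 687 and 700 (4561, 4688 and 4543), and both Larp1 and the summed cytosolic ribosomal protein mRNAs were divided between libraries in the same way. In 23 of 78 members, or 29.5%, each of the 3 libraries with the higher sums lay above each of the other 3, against 6.11% of detected nuclear protein-coding genes. In deposited TPM, where non-coding RNA takes an unequal share of each library, 2 members had this order, against 2.03% of genes, and with TMM scaling 31 did, against 9.97%. In coding TPM the reverse order was seen in 4 members, or 5.13%, against 14.5%. The 23 include Mrps21, the member of highest level, and all 6 past 1.5-fold. The division was read from the sums of these same members, so the counts are a description, and no genotype was assigned from it.

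**Figure D4:**
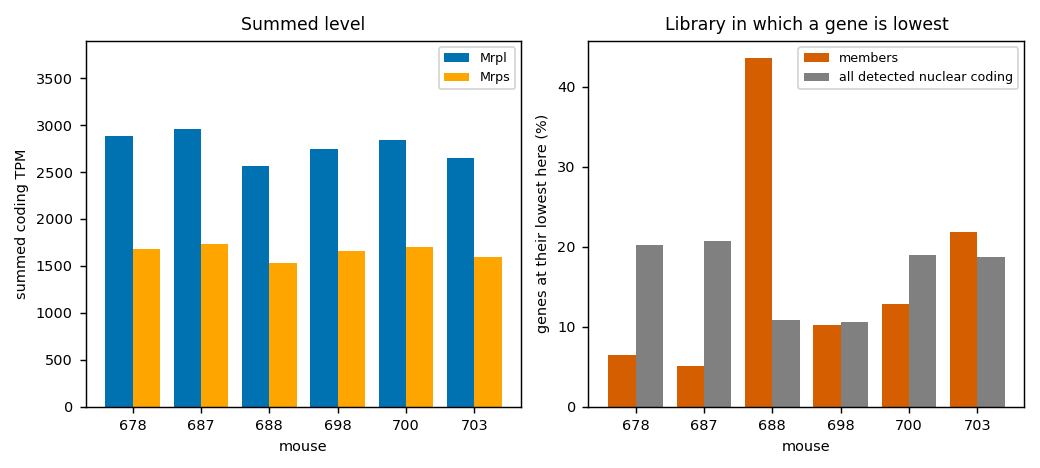
Left, summed coding TPM of Mrpl (blue) and Mrps (orange) genes by mouse. Right, share (%) of the 78 members and of all detected nuclear protein-coding genes whose lowest library is that mouse, which is 43.6% and 10.8% for mouse 688.

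The other genes of mitochondrial translation were read from lists beside the members. The 5 subunit proteins with other names had 0 genes past 1.5-fold and a summed ratio of 1.13. The highest were Aurkaip1, a small-subunit protein, with a median of 101.2 coding TPM (range 91.6 to 105.7), and Dap3, a GTP-binding protein of the small subunit, with 97.5 (93.3 to 103.7). Of 13 translation factors, 0 passed 1.5-fold. Tufm, the elongation factor that brings tRNA to the ribosome, had a median of 73.4 (63.0 to 79.2), and Oxa1l, the insertase to which the ribosome docks, a median of 41.8 (39.5 to 48.99).

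Assembly factors and rRNA-modifying enzymes lay lower, with a median level of 13.9 coding TPM. Of these, 9 of 25 passed 1.5-fold, or 36.0%, near the 29.6% of all detected nuclear protein-coding genes, and their median ratio was 1.33, as it was for all genes. The RNA helicase Dhx30 was highest at 91.1 (range 85.8 to 95.1), followed by the small-subunit assembly factor Rbfa at 44.0 (41.7 to 50.7). Among 10 genes of mitochondrial transcription and RNA handling, 2 passed. Slirp, which stabilises mitochondrial mRNA with Lrpprc, ranged from 34.3 to 68.98, a ratio of 2.01, and Tfam, the transcription and packaging factor of mitochondrial DNA, from 34.7 to 41.3.

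Few of the leading transcripts begin with a TOP motif in the annotation. Of the 78, 4 had a leading transcript that starts with C and at least 4 further pyrimidines, or 5.13%, against 2.35% of detected nuclear protein-coding genes. In 15 members the leading transcript is not annotated as protein-coding, and in Mrps5, Mrps24, Mrps25, Mrps35 and Mrpl47 it begins well inside the gene. For such genes the start read is not that of the coding mRNA, but no other listed transcript of the 15 starts with the motif either. Their first 24 bases from GENCODE M21 are shown because they are all the cases found, beside Mrps21 and Mrpl22 as members without the motif, with the motif in capitals.
Mrpl10: CTTCCgtctccgcgcagcgcgcat
Mrpl35: CTTTTgctttgtaactttgagtcc
Mrpl36: CTTCCTggcggtggcgtcccactc
Mrpl4: CTTCCCggcacccggctctggctc
Mrps21: ccagtctgtagtcccggaagaatg
Mrpl22: cccggaggcttccgtagggctcag
The runs were short, with 4 pyrimidines after the C in Mrpl10 and Mrpl35 and 5 in Mrpl36 and Mrpl4. No leading transcript of a member had 6 or more, against 1.18% of all genes.

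The 4 genes with a TOP start belong to the large subunit by symbol. Mrpl10 (chr11:97041560-97049213, plus strand) measured 60.4, 63.1, 62.7, 73.3, 59.9 and 66.8 coding TPM in mice 678, 687, 688, 698, 700 and 703. Mrpl4 (uL4m, chr9:21002738-21008839, plus strand), which reaches into the exit tunnel, measured 59.5, 60.4, 54.5, 65.0, 66.9 and 59.9. In neither gene did the libraries fall into separate groups. Mrpl35 (bL35m, chr6:71812997-71826969, minus strand) measured 24.9, 25.8, 23.2, 25.6, 19.3 and 27.7, with mouse 700 set apart below. Mrpl36 (bL36m, chr13:73328513-73332178, plus strand) measured 44.1, 51.7, 41.0, 49.2, 44.0 and 45.5. Their ratios of highest to lowest were 1.22 for Mrpl10, 1.23 for Mrpl4, 1.26 for Mrpl36 and 1.43 for Mrpl35, all under 1.5.

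A motif that begins within 5 bases of the annotated start was found in 13 members, or 16.7%, against 10.8% of all genes. They include Mrpl30, the most variable member, and Mrpl52. When any listed transcript counted, 7 members had a motif, or 9.0%, against 10.7%. Among them was Mrpl24, where a coding transcript with a median of 4.31% of the gene's TPM has 23 pyrimidines after the C. An annotated end is not a measured start site, and which base the transcripts began with in these animals was not measured.

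Promoter windows of the members held more copies of motifs known from genes of respiration than windows of all genes did. The windows run from 250 bases before to 50 after the gene start (RefSeq, GRCm38.p6), and 75 windows of 69 members were matched. Both strands were searched, and none of the motif letters was allowed to vary. The NRF1 core GCGCATGCG was in 9.33% of member windows, 1.75% of all windows and 3.34% of windows of detected nuclear protein-coding genes. The ETS core CCGGAAG, bound by factors such as GABP, was in 34.7%, 8.86% and 15.7%. The YY1 core AAGATGGC was in 16.0%, 2.75% and 4.06%. Of the 69 members, 38 held at least 1 of the 3 and 31 held none.

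Stretches of 27 bases are shown for members described above, with the motif in capitals, on the strand of the gene. The first pair holds the NRF1 core, the next pair the ETS core and the last pair the YY1 core.
Mrpl10 (chr11:97041438-97041464, plus strand): ccagctccaCGCATGCGCatagcggcc
Mrpl22 (chr11:58171622-58171648, plus strand): cctcggactGCGCATGCGtatagtcag
Mrps18a (chr17:46110969-46110995, plus strand): acccctgctCCGGAAGcggaagtgcac
Mrps27 (chr13:99344729-99344755, plus strand): gtaggaccaCTTCCGGcggaggcgggc
Mrps18a (chr17:46111006-46111032, plus strand): gtgcgttccAAGATGGCggccctcagg
Mrps27 (chr13:99344791-99344817, plus strand): gtgcgctccAAGATGGCggctcccatg
The YY1 core lay at a like place in both genes, its first base 11 and 14 bases after the gene start. Mrps18a, Mrps27 and Mrps12 were the 3 members with both the ETS and the YY1 core. Mrps18a and Mrps27 differed in level, at medians of 88.1 and 26.0 coding TPM. A match of letters is a description, and binding was not measured.

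**Figure D5:**
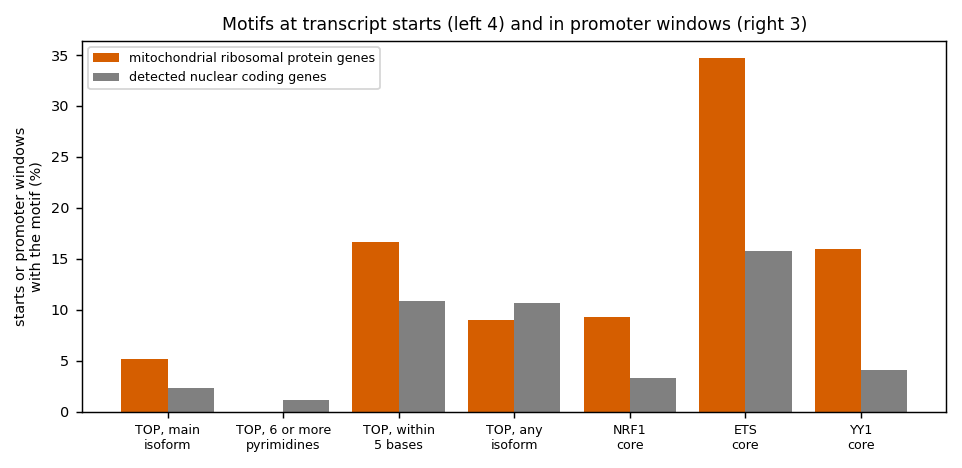
Share (%) of members (orange) and of detected nuclear protein-coding genes (grey) with a TOP motif under 4 definitions at the transcript start, and share of promoter windows with the NRF1, ETS or YY1 core. The ETS core is in 34.7% of member windows and 15.7% of windows of detected genes.

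Many members share a start region with a neighbour. In 33 of 78, or 42.3%, the start of a protein-coding gene on the opposite strand lay within 1000 bases, against 15.1% of detected nuclear protein-coding genes, and in 28 of the 33 the neighbour was itself detected. Starts here are the outermost annotated base of each gene, which need not be the start of its leading transcript. Mrpl46 and Mrps11, of the large and the small subunit, face each other with gene starts 412 bases apart. Their leading transcripts begin at bases 78783089 and 78783119 of chromosome 7, and the genes had medians of 37.4 and 38.6 coding TPM. Other pairs were at unlike levels. The gene start of Mrpl36 lies 29 bases from that of Ndufs6, a Complex I subunit, with 44.8 and 163.0 coding TPM. That of Mrpl47 lies 615 bases from Ndufb5, another Complex I subunit, with 18.3 and 216.1. The leading transcripts of Mrpl36 and Mrpl47 begin farther in, at bases 73330988 and 32732613, against gene starts of 73328513 and 32737605. Mrpl49 lies 59 bases from Fau, the precursor of a cytosolic ribosomal protein, whose range was 374.7 to 831.8 while that of Mrpl49 was 41.0 to 55.6. Mrps12 starts 172 bases from Sars2, the mitochondrial seryl-tRNA synthetase, with medians of 99.9 and 9.69.

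The genes are also short. The leading transcript had a median of 897 bases and 4.5 exons, against 2819 bases and 8 exons in all detected nuclear protein-coding genes. The members lie on 17 chromosomes. Of the 78, 21 overlap a detected gene on the opposite strand, Mrpl36, Mrpl46 and Mrps11 among them, and 23 share at least 200 bases at 95% identity with another gene. No source used here says whether reads were assigned by strand, so their counts are uncertain to that extent. Without those genes 39 members remain, of which 5 passed 1.5-fold. Neither overlap nor shared sequence was counted over all detected genes, so these counts do not set the members apart.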

How the data were processed

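Paired-end reads of rRNA-depleted RNA were trimmed by the authors (cutadapt), aligned to mm10 (STAR) and quantified (RSEM). No version is stated in any source used here. UCSC annotations are named in the methods, but the files list Ensembl transcripts. RNA came from RNEasy columns per the methods and from trizol per the labels. The deposited values are RSEM's expected counts (unnormalized) and TPM, scaled by the authors over the 142351 transcripts in each file. Of the value columns 12 were used and 18 were not.

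Transcripts were matched to GENCODE M21 without version (99.36% matched; the other 910 held 0.246% to 0.272% of counts) and summed per gene. TPM was rescaled so that nuclear protein-coding genes sum to 1000000, and counts were rounded for detection (at least 10 in every library). The labels describe 12 samples, with 2 parts for each of 3 replicates per genotype, and no source says what a part is. Mouse numbers match no label, and the tissue of each library is inferred from every label being cortex, so no test between libraries was made. Whether the mice were littermates is not known here.

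Alternatives used TMM factors (edgeR 4.0.16) and DESeq2 1.42.0 size factors in R 4.3.3, other units and definitions, and each library left out. Poisson intervals (95%) cover counting error only. Copies were found with blastn 2.17.0 (at least 95% identity over 200 bases). Promoters were from RefSeq. Members and lists were chosen with earlier results of these data known. Within Mrpl and Mrps, the 4 highest and 3 lowest levels, the 4 largest and 2 smallest ratios, the TOP starts, Mrpl22, the S18 paralogs, Mrps30, Mrps36 and the stalk genes were named, with the 2 highest genes of each other mitochondrial list. Genes named for isoforms, motifs, neighbours and outlying libraries were picked after their values were seen.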

Additional observations from a re-analysis of the deposited data

Results flagged for a closer look

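In 3 of the 78 members, or 3.85%, 1 library lay apart from the other 5 by Dixon's ratio (limit 0.625 for 6 values). Chance flags about 1 in 20 such groups, and 5.94% of all detected nuclear protein-coding genes were set apart in the same way. Mrpl49, specific to the mitochondrial large subunit, was lowest in mouse 700 at 41.0 coding TPM, against 50.8 to 55.6 in the others. Mrpl55 (bL31m) was lowest in mouse 703 at 45.7, against 54.0 to 56.8. Mrps35, of the small subunit, was highest in mouse 678 at 37.3, against 27.3 to 30.9. With protein-coding transcripts alone Mrps35 measured 14.07 in mouse 678, against 7.94 to 14.05 in the others, so mouse 678 did not lie apart. The summed levels and the ratio of Mrpl to Mrps medians had no library set apart.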

How the results depend on the processing

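No paired analysis was possible because the numbered libraries carry no replicate number or genotype. The summed level had a highest-to-lowest ratio of 1.14 and kept it within the spread of the libraries with TMM (1.15), with DESeq2 size factors (1.15) and with each library left out (1.10 to 1.14); it was 1.22 in deposited TPM and 1.21 as a share of all counts. Members past 1.5-fold numbered 14 in deposited TPM, beside 44.7% of all genes. They numbered 12 with protein-coding transcripts alone, an alternative chosen after seeing the data, against 6. With each library left out they numbered 2 (without mouse 688) to 6. The share of all genes was 26.7% without mouse 688 and 23.9% to 27% without another library. Counts over all genes were not made with protein-coding transcripts alone, here or below. The Mrpl to Mrps ratio of medians, 1.09 over libraries, was 0.993 with means, 1.22 with counts not divided by length, 1.66 with protein-coding transcripts alone, and 1.08 to 1.10 with each library left out. TOP starts, 4 by the leading transcript, numbered 7 with any transcript. By the leading transcript they numbered 0 with at least 6 pyrimidines and 13 within 5 bases. Members lowest in mouse 688 numbered 30 to 42 under the 4 alternatives, chosen after seeing the data, against 34. The share of all genes lowest there was 13.5% in deposited TPM, 15.4% with TMM and 15.1% with DESeq2, against 10.8%. Members with the 3 libraries of higher sum above the other 3 numbered 2 in deposited TPM, 31 with TMM and with DESeq2, and 19 with protein-coding transcripts, all chosen after seeing the data, against 23. The share of all genes in that order was 2.03% in deposited TPM, 9.97% with TMM and 9.51% with DESeq2, against 6.11%. Detection held for 77 members at 100 counts in every library. Depth limits single genes: a 95% Poisson interval at the lowest count of Mrps28 has ends 1.52 times apart. The cause of the changes was not tested.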

Other observations

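The values of some members fell into separate clusters of libraries, defined by a gap between neighbouring log2 values wider than the range on either side of it. This held for 24 of 78 members, or 30.8%, and for 41.1% of all detected nuclear protein-coding genes, so it was no more frequent among members. The most frequent split put mice 688, 698 and 703 below the other 3. It was found in 6 members, or 7.69%, and in 206 of 13625 detected nuclear protein-coding genes, or 1.51%. The cytosolic ribosomal protein sums (55464, 54097, 24828, 24862, 55669 and 24930 coding TPM in mice 678, 687, 688, 698, 700 and 703) and Larp1 (76.5, 76.4, 25.7, 25.2, 77.1 and 25.4) were split in the same way. No genotype was assigned from these values.

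Beside Mrpl23, given above, the members so split were 3 of the large and 2 of the small subunit by symbol. Mrpl24 (uL24m) measured 44.0, 40.6, 33.7, 32.9, 41.9 and 33.4 coding TPM in the same order of mice. It shares sequence with the overlapping gene Rrnad1. Mrpl46 measured 39.6, 38.6, 35.5, 36.2, 39.5 and 35.1. Mrpl51 measured 80.0, 76.5, 62.8, 68.7, 79.1 and 66.2. Mrps18b measured 40.8, 42.3, 37.3, 34.7, 43.9 and 36.8. Mrps28, the member with the fewest counts, measured 19.4, 18.9, 17.1, 16.6, 20.5 and 16.2. None of these 6 has a TOP motif at the start of its leading transcript. In Mrpl46, Mrps18b and Mrps28 the highest-to-lowest ratios were 1.13, 1.26 and 1.26. These were less than the 95% Poisson interval at the lowest count, with ends 1.25, 1.28 and 1.52 times apart. That interval covers the lowest count alone, so it cannot tell whether counting error gives a split between groups of libraries.

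A split of mice 688 and 703 below the rest was seen in Mrpl28, Mrpl34, Mrps12 and Mrps15. Mrpl28 measured 74.0, 73.0, 61.8, 70.8, 73.6 and 65.5 coding TPM, and Mrps15 measured 52.8, 52.7, 42.7, 49.05, 53.0 and 43.6. Mrps23 went the other way, at 67.6, 66.7, 87.2, 83.8, 77.2 and 77.8, with mice 678 and 687 lowest. Its expected counts, not scaled for depth, were 575, 665, 592, 573, 507 and 632, with mouse 700 lowest. The leading transcript of Mrps23 held 38.3% to 64.1% of its TPM, and the part of this division in the split was not tested. In Mrps22 the split put mice 678, 698 and 700 below the others, at 24.1, 23.2 and 23.7 against 25.4 to 26.7. The ratios of Mrps22, Mrpl34, Mrps12 and Mrps15 were 1.15, 1.288, 1.18 and 1.24. These ratios too were less than the 95% Poisson interval at the lowest count, with ends 1.31, 1.289, 1.19 and 1.27 times apart. The splits themselves were not tested against counting error.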
